A study of Saccharomyces cerevisiae with 8 samples.

Results

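The transcripts described here are those of the proteasome of Saccharomyces cerevisiae, 34 of the 6337 genes counted. They were taken by gene symbol and comprise 14 subunits of the 20S core particle, 19 subunits of the 19S regulatory particle and UMP1, which encodes the chaperone of core assembly. All 34 were in the count table and passed the filter on low counts, as did 6087 genes in all. mRNA was sequenced in 2 libraries each of 4 strains, ncs2∆elp6∆hel2∆ (the triple mutant), ncs2∆elp6∆ (the double mutant), hel2∆ and wild type, from cells in rich YPD medium at 30 °C. All strains were given as MATa, BY4741, with his3∆1, leu2∆0 and ura3∆0. NCS2 was replaced by HIS3MX and ELP6 by URA3 in both strains named for them, and HEL2 by LEU2 in both hel2∆ strains. met15∆0 was listed for wild type alone. The study calls its mRNA replicates biological. The labels do not name the culture of each library. The p-values rest on the spread between libraries of the same strain, estimated jointly over all 4 strains and with information from other genes. Libraries outside a comparison therefore also bear on its calls.

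The proteasome degrades proteins that carry ubiquitin chains. Its barrel-shaped 20S core holds the proteolytic sites inside the β rings, behind a gate formed by the α rings. The 19S particle caps the core, with a base whose Rpt ATPases unfold substrates and a lid whose Rpn11 cuts off ubiquitin. In yeast, most of these genes are driven by the transcription factor Rpn4, which binds the proteasome-associated control element (PACE) and is itself a short-lived substrate of the proteasome. Elp6, of the Elongator complex, and Ncs2, of the thiolation pathway, are needed for modification of the wobble base U34 in a set of tRNAs. Hel2, an E3 ligase for ubiquitin, recognises ribosomes that have collided and starts ribosome-associated quality control. The comparisons ask how proteasome transcripts differ without U34 modification, and without Hel2 in either background.

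Most members share a short sequence ahead of their coding regions. PACE, taken as GGTGGCAAA on either strand (TTTGCCACC on the other), was searched in the 300 bases before each start codon. An exact match was found for 27 of the 34 members (79.4%), against 72 of 5644 genes tested with such a window (1.28%), members included. Among genes that are no members it was 45 of 5610 (0.802%). The element is named for proteasome genes, so its high share among them is a description and no test. Allowing 1 mismatch, 33 of 34 members had a match, against 7.94% of genes, and UMP1 was the exception. The 27 matches lay 84 to 183 bases before the start codon with a median of 120, and 19 of them read in the direction of the gene. The windows below are shown for the members whose values are described most closely, 5′ to 3′ on the strand that reads GGTGGCAAA, from the NCBI assembly R64, with the 9 bases in capitals.
RPT2: gtttttctccGGTGGCAAAtgtctctttt
PRE2: acagcaaaagGGTGGCAAAacgaagaata
PRE3: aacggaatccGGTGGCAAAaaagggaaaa
RPN11: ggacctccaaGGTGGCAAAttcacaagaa
RPT4: ctttcccttcGGTGGCAAAttccactatt
RPN3: ctctttcttgGGTGGCAAAtgtttttcgt
RPN9: gctttcatccGGTGGCAAAagtaagaaca
RPN7: atcctcaatgGGTGGCAAActtaacttat
RPN5: ttgacttttcGGTGGCAAAatgcaaaggg
PRE7: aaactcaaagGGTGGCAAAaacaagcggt
The windows of RPT4, RPN3 and RPN7 lay on the strand opposite to the gene. They begin on chromosome IV at 437906 (RPT2), 1322086 (RPN9) and 190776 (RPN5), and on chromosome XVI at 732184 (PRE2) and 742290 (RPN7). The others begin at 435035 on chromosome X (PRE3), 153259 on VI (RPN11), 813802 on XV (RPT4), 196843 on V (RPN3) and 141150 on II (PRE7). All lie ahead of the start codon of their gene. No member overlapped another gene of the NCBI annotation, in which some of the gene IDs counted were not found.

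The 6 members with a match at 1 mismatch fell into 2 kinds, shown here with the matching bases in capitals to compare the site that differs.
RPN8: gggatacctcaGTGGCAAAtcgttactca
PRE5: cctattatagaGTGGCAAAattaaaaatt
PUP1: aacccggccgaGTGGCAAAataccaaaaa
RPN10: tgtaaattccGGTGGCgAAaacccgcctg
RPN13: ttattcgcgaGGTGGCgAAagctttgcta
SEM1: tagtgctatgGGTGGCgAAcgtggtgggc
The windows begin at 817085, 901552, 631891, 498968, 965656 and 1202007 on chromosomes XV, XIII, XV, VIII, XII and IV, in the order listed, and that of RPN10 lay on the strand opposite to the gene. AGTGGCAAA occurred in the same window of 0.868% of the 5644 genes and GGTGGCGAA in 0.372%. A match is a description of the letters, and binding of Rpn4 was not measured.

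Total counts were 13252947 to 23941037 per library, and each member had at least 1575 and at most 19978 counts in a library. As a check of the strains, HEL2 had 0 to 1 counts in the 4 libraries labelled hel2∆, and NCS2 and ELP6 had 0 to 11 counts where they were deleted. MET17 (MET15), a sulfhydrylase of methionine synthesis, was at 243, 281, 259.5 and 232 CPM in the triple- and double-mutant libraries and at 0, 0, 0.313 and 0.0777 CPM in hel2∆ and wild type, although met15∆0 was not among the alleles listed for hel2∆. CPM are read counts scaled to a common library size, with factors for composition. STE2, the pheromone receptor gene of MATa cells, was at 602.3 to 936.1 CPM and STE3, that of MATα cells, at 5.32 to 11.6 CPM. The MET17 difference and the HIS3MX and URA3 markers run with the loss of U34 modification in every comparison on it below. The LEU2 marker runs with the loss of HEL2 in the same way. Effects of these differences cannot be told apart from effects of losing U34 modification or HEL2.

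Taken as a sum, proteasome transcripts were at 12064 and 11847 CPM in the triple mutant and at 11910 and 11933 CPM in the double mutant, against 8918 and 8456 CPM in hel2∆ and 8544 and 8457 CPM in wild type. The 4 libraries without U34 modification all lay above the 4 with it, and the sums were 1.41, 1.40 and 1.02 times that of wild type in the 3 mutants. Within each pair of strains that differ in HEL2 alone among the deletions, the sums overlapped. In bulk cultures such scaled values are shares of the mRNA pool, and a different make-up of the cells cannot be told apart from a different amount of RNA per cell. The heat map of the members shows that most rows, though not all, carry this split.

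**Figure D1:**
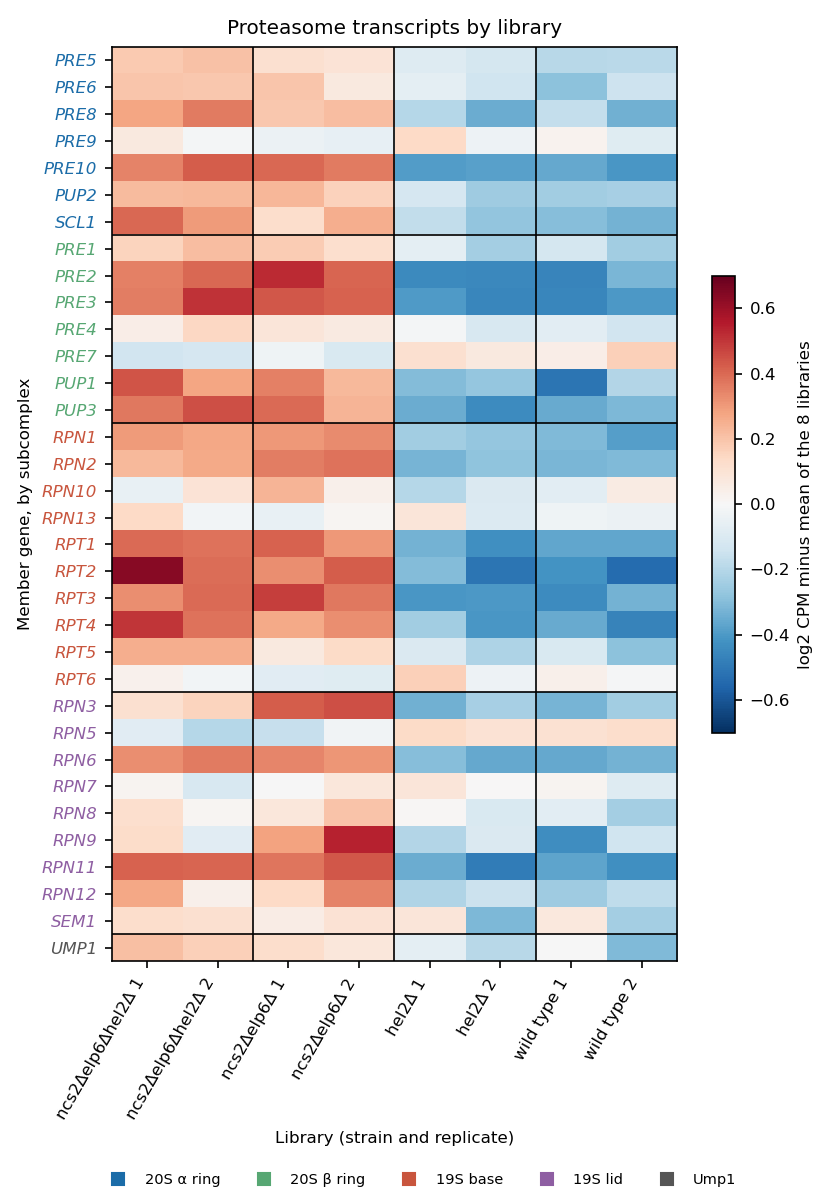
Each cell is the log2 CPM of 1 member gene (rows, coloured by subcomplex) in 1 library (columns) minus the mean of its 8 libraries. Most rows are above their mean in the 4 libraries of ncs2∆elp6∆hel2∆ and ncs2∆elp6∆ and below it in the 4 of hel2∆ and wild type, while PRE7 and RPN5 run the other way and RPN7, RPN10, RPN13, RPT6, PRE9 and SEM1 show no such split.

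Levels per kilobase of coding sequence allow members to be compared with each other. Their median was 347 CPM per kb in the triple mutant, 341 in the double mutant, 277 in hel2∆ and 265 in wild type. In wild type they spanned 131.8 CPM per kb for RPN1, a scaffold of the base, to 689.7 for SEM1, a small lid protein, with 32 of 34 within 2-fold of the median. SEM1 was highest in all 4 strains. The lowest was RPN7, of the lid, in the strains without U34 modification, and RPN1 in the strains with it. The α ring had the higher medians per kb (429.5 in the triple mutant and 321.5 in wild type) and the lid the lower ones (266.9 in the triple mutant and 197.6 in wild type).

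In the double mutant against wild type, proteasome transcripts were broadly higher. By the quasi-likelihood F test of edgeR with Benjamini-Hochberg adjustment over 6087 genes, 24 of 34 members were called higher (adjusted p under 0.05) and 0 lower, while 27.9% of all genes were called, 14.9% higher and 13% lower. The median log2 fold change of the members was 0.46, a 1.37-fold difference, beside 0.03 over all genes. Libraries of the 2 strains did not overlap for 29 of 34 members, against 65.5% of genes. Every difference was below 2-fold. The calls of 18 of the 24 held in all alternatives, and those of PRE1, PRE5, PRE6, RPN8, RPN12 and RPT5 were lost without at least 1 of the libraries, among them each double-mutant library for all but PRE6 and RPN12. Leaving out 1 library gave 19 to 24 members called. RPN8 and RPT5 were also lost in a fit of only the strains compared, and RPN8 with upper-quartile factors.

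**Figure D2:**
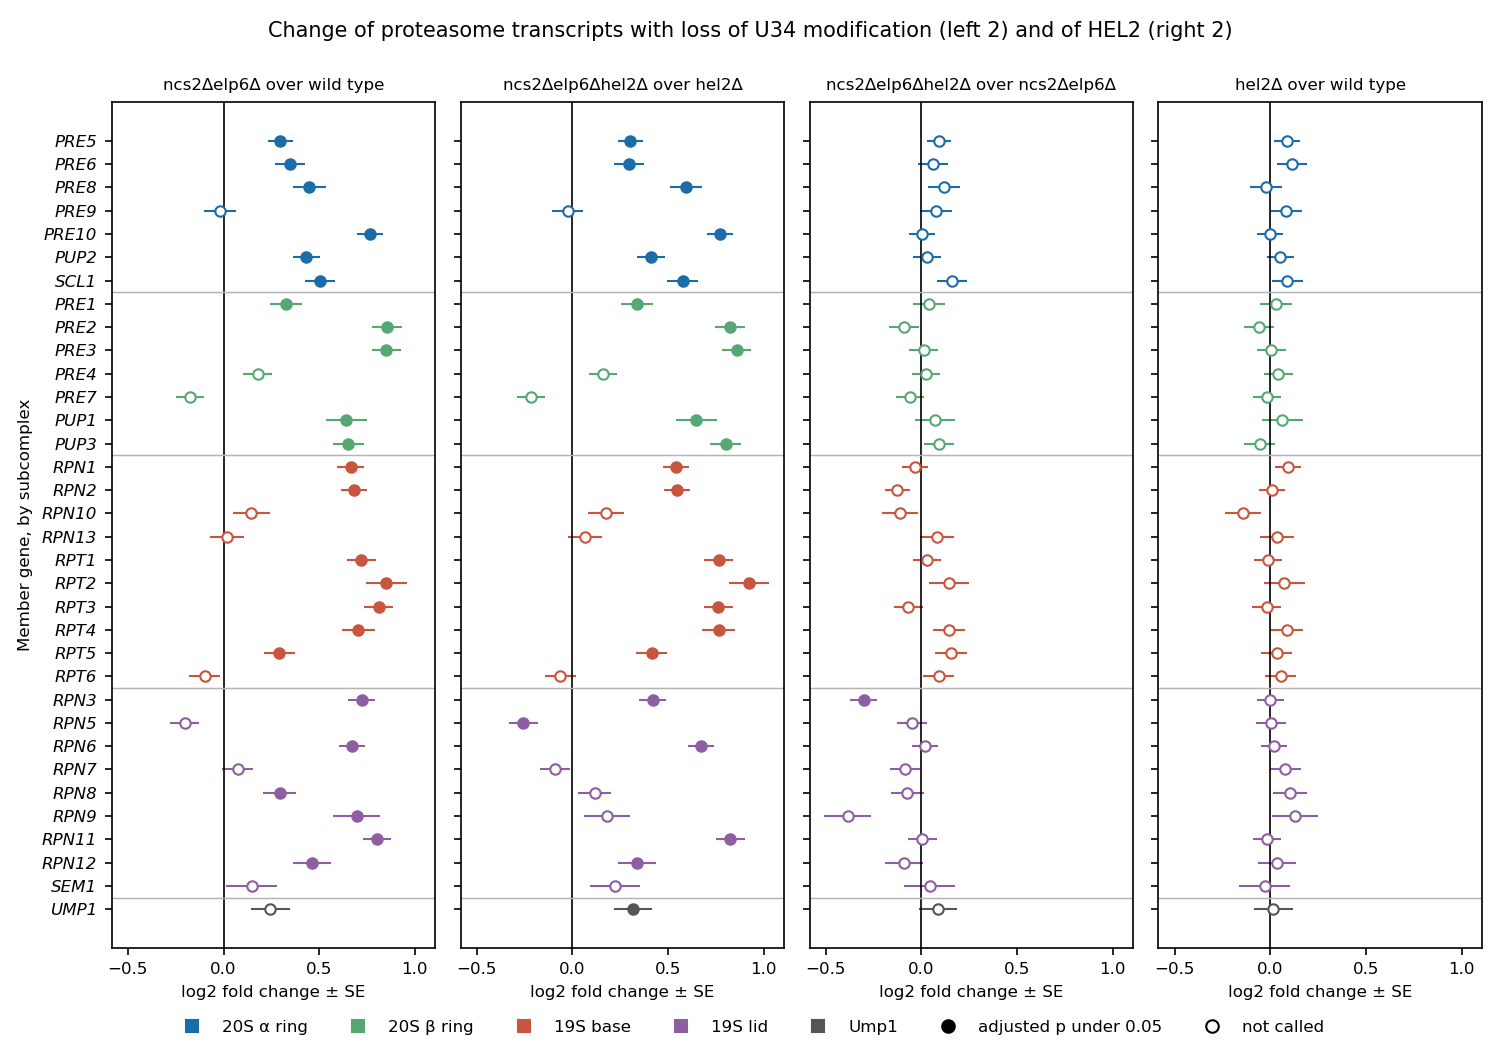
Log2 fold changes (points, with bars of 1 standard error) of the 34 members, one row each, in 4 comparisons named above the panels, with filled points for an adjusted p under 0.05. In the 2 panels on loss of U34 modification most points lie right of 0, up to 0.92 for RPT2, whereas in the 2 panels on loss of HEL2 they cluster at 0 and RPN3 is the single filled point.

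In the proteolytic β ring, 5 of 7 members were called higher in the double mutant, with a median log2 fold change of 0.64. PRE2 (YPR103W, chromosome XVI, 732349 to 733212), which encodes the subunit with the chymotrypsin-like site, had 506 and 469 CPM in the double mutant, against 256 and 283 CPM in wild type. Both mutant libraries lay far above both wild-type libraries, a log2 difference of 0.86 ± 0.08 (SE, edgeR adjusted p = 7.4e-05). PRE3 (YJL001W, chromosome X, 435163 to 435926), the gene of the caspase-like site, whose coding sequence is in 2 parts, had 379 and 374 CPM in the double mutant, against 205 and 213 CPM in wild type, and again the libraries did not overlap. Its log2 difference was 0.85 ± 0.08 (edgeR adjusted p = 6.5e-05). PUP1, of the trypsin-like site, was higher by 0.64 ± 0.11 on the log2 scale, so transcripts for all the catalytic subunits rose. The structural subunit genes PUP3 and PRE1 rose by 0.65 and 0.33. PRE4 and PRE7 were not called, at log2 differences of 0.18 and -0.17.

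The α ring, which gates the core, had 6 of 7 members called higher in the double mutant, with a median of 0.43. PRE10 rose most, at 0.77 ± 0.07 on the log2 scale (edgeR adjusted p = 6.5e-05). SCL1, PRE8, PUP2, PRE6 and PRE5 followed at 0.50, 0.45, 0.43, 0.35 and 0.30. PRE9, the one α subunit that yeast can live without, was at -0.02 ± 0.08 and was not called.

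In the base of the 19S particle, 7 of 10 members were called higher, with a median of 0.67. RPT2 (YDL007W, chromosome IV, 438047 to 439360), an ATPase of the ring with a role in opening the core gate, had 659.9 and 707 CPM in the double mutant, against 394 and 362 CPM in wild type. Both double-mutant libraries were above both wild-type ones, by 0.85 ± 0.11 on the log2 scale (edgeR adjusted p = 0.000474). RPT4 (YOR259C, chromosome XV, 812395 to 813708), another ATPase of the ring, had 545 and 568 CPM in the double mutant, against 356 and 327 CPM in wild type, a difference of 0.70 ± 0.09. The ATPase genes RPT3 and RPT1 rose by 0.81 and 0.72, and the scaffold genes RPN2 and RPN1 by 0.68 and 0.67, whereas RPT5 rose by 0.29. RPT6, the remaining ATPase of the hexamer, was at -0.10 ± 0.08 and not called, and neither were the ubiquitin receptors RPN10 and RPN13, at 0.15 and 0.02.

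Of the lid, 6 of 9 members were called higher, with a median of 0.46. RPN11 (YFR004W, chromosome VI, 153393 to 154313), the deubiquitinase of the lid, had 303 and 316 CPM in the double mutant, against 180.4 and 174 CPM in wild type, without overlap, and rose by 0.80 ± 0.07 on the log2 scale (edgeR adjusted p = 8.6e-05). RPN3, RPN9, RPN6, RPN12 and RPN8, structural subunits of the lid, rose by 0.72, 0.70, 0.67, 0.46 and 0.29. SEM1 and RPN7 were not called, at 0.15 and 0.07. RPN5 was lower without reaching the threshold, at -0.20 ± 0.08 (edgeR adjusted p = 0.0775), and was called lower with RLE size factors (DESeq2's scaling) and with upper-quartile factors (edgeR adjusted p = 0.0356). UMP1, outside these subcomplexes, was at 0.24 ± 0.10 (edgeR adjusted p = 0.102). It was called higher with library totals and when wild-type replicate 1 was left out, where its difference was 0.41.

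In the triple mutant against wild type, 23 of 34 members were called higher and 2 lower, beside 29.9% of genes called, 14.9% in each direction, with a median log2 fold change of 0.43 (0.01 over all genes). Libraries did not overlap for 30 members, against 66.8% of genes. RPT2 was at 820.0 and 691 CPM in the triple mutant, against the wild-type values above, a log2 difference of 1.00 ± 0.11 (edgeR adjusted p = 0.000151). PRE3 had 360.0 and 399.9 CPM and RPT4 had 641 and 589.9 CPM in the triple mutant, differences from wild type of 0.86 and 0.85. These 3 had the largest rises in this comparison, and the 2 members called lower were PRE7 and RPN5. Of the 25 calls, 20 held in all alternatives, and the others were PRE1, PRE7, RPN5, RPN12 and UMP1, each lost without 1 or more libraries. The comparison shares its wild-type libraries with that of the double mutant.

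The U34 comparison was repeated by the design in cells without HEL2, with other libraries on both sides. In the triple mutant against hel2∆, 23 of 34 members were called higher and 1 lower, while 28.8% of genes were called, 15.1% higher and 13.8% lower. The median of the members was 0.41, beside 0.00 over all genes, and libraries did not overlap for 30 members, against 66.2% of genes. RPT2 had 820.0 and 691 CPM in the triple mutant, against 427 and 369 CPM in hel2∆, and rose by 0.92 ± 0.11 (edgeR adjusted p = 0.000263). PRE3 had 360.0 and 399.9 CPM in the triple mutant, against 214 and 205 CPM in hel2∆, and rose by 0.86 ± 0.08. RPN11 had 310.3 and 310.0 CPM in the triple mutant, against 183 and 166 CPM in hel2∆, and rose by 0.83 ± 0.07. For these 3 genes of the base, the core and the lid, each library of the triple mutant was far above each hel2∆ library.

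By subcomplex, 6 of 7 members of the α ring, 5 of 7 of the β ring, 7 of 10 of the base and 4 of 9 of the lid were called higher in the triple mutant against hel2∆, with medians of 0.41, 0.65, 0.54 and 0.22. UMP1 was at 191 and 185 CPM in the triple mutant, against 158 and 145 CPM in hel2∆, and was called higher by 0.32 ± 0.10 (edgeR adjusted p = 0.0423). This call was near the threshold and was lost in 7 of 16 alternatives, with adjusted p-values of 0.0145 to 0.189 when libraries were left out one at a time. Over all members, 18 of the 24 calls held in all alternatives, and PRE1, PRE5, PRE6, RPN5, RPN12 and UMP1 made up the rest.

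Between both U34 comparisons, which have no library in common, the members had similar fold changes. In all, 22 members were called higher in both, and 33 of 34 had the same sign. Both comparisons came from the same fit, with shared scaling and a shared estimate of spread, so their calls are not independent. Of all genes, 14.9% and 15.1% were called higher in the 2 comparisons. The log2 fold changes correlated across members at Pearson's r = 0.923 and Spearman's rho = 0.901 (34 genes, which are not independent replicates, and library preparation is shared). The agreement between both comparisons was not computed over all genes, so it is not shown to be particular to the members. RPN8 and RPN9 passed the threshold (higher) in the comparison with HEL2 and not in that without it. UMP1 (higher) and RPN5 (lower) passed it without HEL2 and not with it. By the interaction described below, the difference between the backgrounds was called for none of the 4. PRE4, PRE7, PRE9, RPN7, RPN10, RPN13, RPT6 and SEM1 were called in neither. With library totals PRE4 was called higher in both (edgeR adjusted p = 0.0179 and 0.0259). PRE7 was near the threshold in the triple mutant against hel2∆ (-0.22 ± 0.07, edgeR adjusted p = 0.0519). It was called lower there with RLE size factors and with upper-quartile factors. Of the 8, PRE7 alone was called in any comparison as reported, lower in the triple mutant against wild type. The values of SEM1 and RPN10 were positive in both U34 comparisons (0.15 and 0.22 for SEM1, 0.15 and 0.17 for RPN10), as were those of PRE4 and RPN13. In the triple mutant against hel2∆, RPN10 was called higher with library totals (edgeR adjusted p = 0.0419), and SEM1 was at 0.43 without hel2∆ replicate 1. The intervals of SEM1 and RPN10 in the double mutant against wild type (-0.15 to 0.45 and -0.07 to 0.36 on the log2 scale) include rises the size of those called for RPN8 and PRE5.

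**Figure D3:**
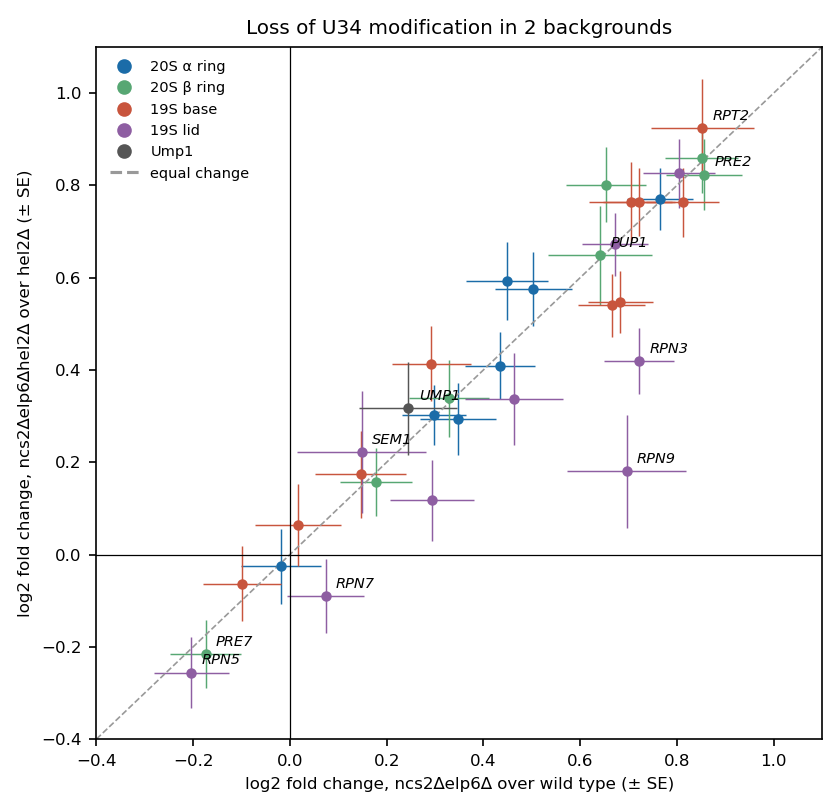
Each point is a member, placed by its log2 fold change in ncs2∆elp6∆ over wild type (x axis) and in ncs2∆elp6∆hel2∆ over hel2∆ (y axis), with bars of 1 standard error and a dashed line of equal change. Points lie along the line from RPN5 and PRE7 at the lower left to RPT2 and PRE2 at the upper right, and RPN9 and RPN3 lie furthest below it.

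A few members stood apart from the general rise. RPN5 (YDL147W, chromosome IV, 190924 to 192261), a lid subunit, had 231 and 213 CPM in the triple mutant and 218 and 240.4 CPM in the double mutant, against 268 and 262 CPM in hel2∆ and 263 and 266 CPM in wild type. All 4 libraries without U34 modification lay below all 4 with it. RPN5 was called lower in the triple mutant against wild type (-0.25 ± 0.08, edgeR adjusted p = 0.0359) and against hel2∆ (-0.26 ± 0.08, adjusted p = 0.0346). Both calls were lost when any 1 library of the strains compared was left out, at adjusted p-values up to 0.158 and 0.148, with library totals, and in a fit of only the strains compared. PRE7 (YBL041W, chromosome II, 141247 to 141972), a β subunit, had 215 and 218 CPM in the triple mutant and 232 and 219 CPM in the double mutant, against 255 and 247 CPM in hel2∆ and 244 and 265 CPM in wild type, again without overlap between both sets of 4. It was called lower in the triple mutant against wild type (-0.23 ± 0.07, edgeR adjusted p = 0.0398). The call of PRE7 was lost without wild-type replicate 2, either library of the triple mutant or either library of the double mutant, with adjusted p-values up to 0.229, and with library totals or a fit of only both strains.

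RPN7 (YPR108W, chromosome XVI, 742454 to 743743) had the smallest spread of strain means of all members, 1.065-fold between the highest and the lowest. Its libraries were at 194 and 177 CPM in the triple mutant, 191 and 202 CPM in the double mutant, 203 and 192 CPM in hel2∆, and 193 and 180.0 CPM in wild type, and all 4 strains overlapped. RPT2 had the largest spread, 1.996-fold. Both genes hold an exact GGTGGCAAA, 154 and 131 bases before the start codon.

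Loss of HEL2 alone left proteasome transcripts near their wild-type levels. In hel2∆ against wild type, 0 of 34 members were called in edgeR, 0 had an unadjusted p under 0.05 and DESeq2 called 0, beside 0.657% of genes called, 0.312% higher and 0.345% lower. Log2 fold changes ran between -0.14 (RPN10) and 0.13 (RPN9) with a median of 0.03, and libraries did not overlap for 5 members, against 28.9% of genes. UMP1 was at 158 and 145 CPM in hel2∆, against 165 and 134 CPM in wild type, with the libraries overlapping. The 95% intervals of the 34 members reached -0.36 for RPN10 and 0.40 for RPN9, so this comparison does not show that the levels were equal.

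In the triple mutant against the double mutant, 1 of 34 members was called, RPN3, which was lower, while 6.93% of genes were called, 4.12% lower and 2.81% higher. The median of the members was 0.03, libraries did not overlap for 15 of them (56.9% of genes), and 2 had an unadjusted p under 0.05. RPN3 (YER021W, chromosome V, 196948 to 198519), a lid subunit, had 414 and 425 CPM in the triple mutant, against 513 and 522 CPM in the double mutant. The libraries of the 2 strains were well apart, and those of hel2∆ (303 and 325 CPM) and wild type (305 and 323 CPM) lay below both, so RPN3 was intermediate in the triple mutant. The difference was -0.30 ± 0.07 (edgeR adjusted p = 0.038). The call was lost when any of the 4 libraries compared was left out (adjusted p up to 0.308) and with RLE size factors or upper-quartile factors.

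RPN9 (YDR427W, chromosome IV, 1322205 to 1323386), also of the lid, was chosen for display after its values were seen. It had 255 and 221 CPM in the triple mutant and 284 and 339 CPM in the double mutant, against 203 and 218 CPM in hel2∆ and 173 and 212 CPM in wild type. Its libraries in both strains without U34 modification did not overlap, and both were above the strains with it. The lower triple-mutant library was close to the higher hel2∆ library. The triple mutant was called neither against hel2∆ (0.18 ± 0.12, edgeR adjusted p = 0.293) nor against wild type (0.31 ± 0.12, adjusted p = 0.0842). The difference of the triple mutant from the double mutant was -0.39 ± 0.12 (edgeR adjusted p = 0.087), which became a call in 4 of 16 alternatives, DESeq2 and the fit of only both strains among them (adjusted p = 0.0257 in that fit). RPN9 and RPN5 are on the list of quality-control targets that the study chose from footprints of collided ribosomes in these strains, and RPT3, RPT1, PRE10, PUP2 and PRE6 are on its list of refractory transcripts. As groups, the study reports lower mRNA of targets than of refractory transcripts in the double mutant, and the reverse in the triple mutant. RPN9 ran the other way, at 0.70 ± 0.12 in the double mutant against wild type and lower in the triple mutant. The share of all genes on these lists was not computed, and a link to quality control was not tested.

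The interaction sets the HEL2-dependent change in the double-mutant background against that in the wild-type background (first minus second). It was called for 0 of 34 members in edgeR, with 2 at an unadjusted p under 0.05, beside 1.13% of genes called, 0.969% higher and 0.164% lower. Taken between single libraries, the differences in both backgrounds did not overlap for 4 members, against 27.8% of genes. DESeq2 called 0 of the 34 as well. The 2 were RPN9 at -0.52 ± 0.17 (edgeR adjusted p = 0.229) and RPN3 at -0.30 ± 0.10 (adjusted p = 0.228). The median was 0.00 (0.00 over all genes), and the other 32 members lay between -0.18 and 0.15.

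RPN4, the gene of the activator, is not a member. It had 316 and 318 CPM in the triple mutant, 168 and 196 CPM in the double mutant, 129 and 126 CPM in hel2∆, and 125 and 111 CPM in wild type. The triple mutant lay above the double mutant and that strain above the others, while the difference of hel2∆ from wild type, 0.11 on the log2 scale, was not called. RPN4 rose in the double mutant against wild type by 0.62 ± 0.09 (edgeR adjusted p = 0.00131) and in the triple mutant against hel2∆ by 1.31 ± 0.09. In the triple mutant against the double mutant it rose by 0.80 ± 0.09 (edgeR adjusted p = 0.00125), while the 34 members had a median of 0.03 and 0 rises called. The interaction of RPN4 was called at 0.69 ± 0.13 (edgeR adjusted p = 0.0408), a call lost in 6 of 15 alternatives (adjusted p up to 0.144 without 1 library).

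**Figure D4:**
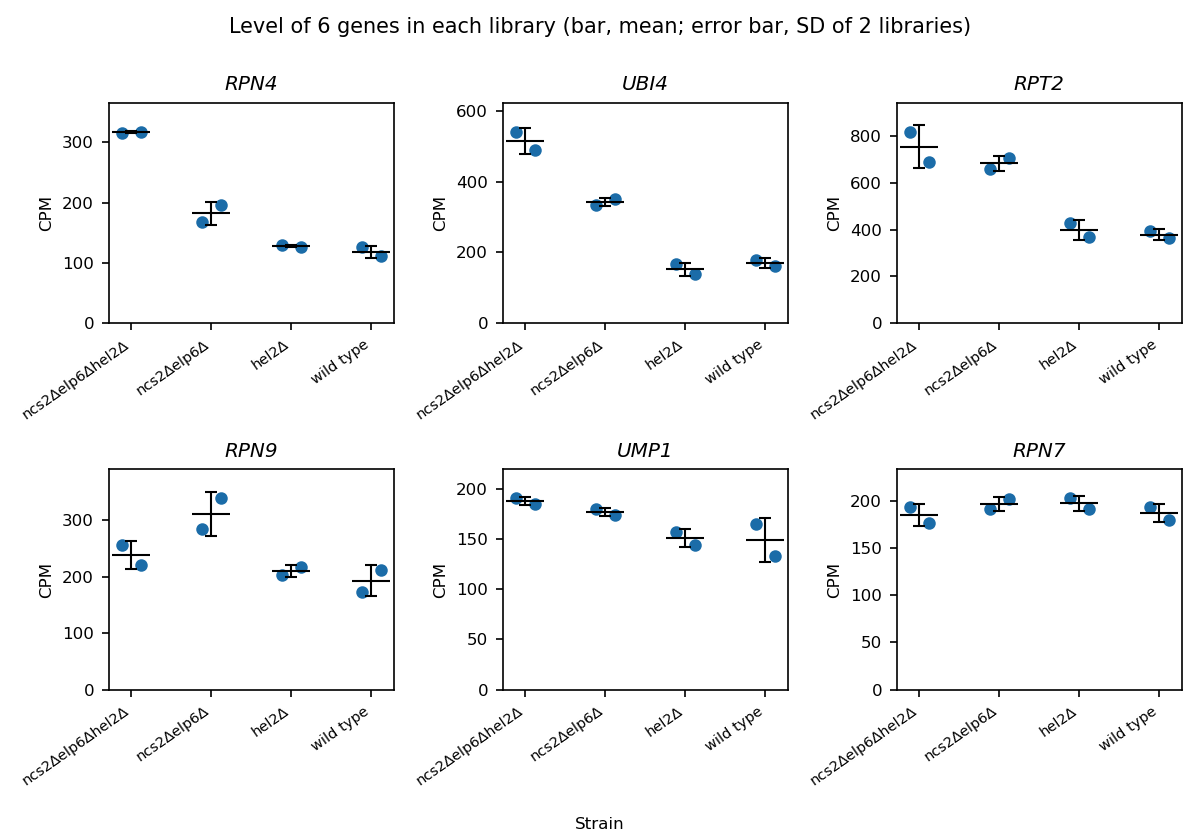
CPM of 6 genes in each of the 2 libraries (points) of 4 strains, with the mean (horizontal bar) and SD (error bar, n = 2), on axes that start at 0. RPN4 and UBI4 are highest in ncs2∆elp6∆hel2∆, RPT2 is about equally raised in both strains without U34 modification, RPN9 is highest in ncs2∆elp6∆, UMP1 is slightly higher in those strains, and RPN7 is level.

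The genes around Rpn4 and the proteasome were described from lists of 38 genes that are no members. In the double mutant against wild type, 23 of the 38 were called higher and 4 lower, beside 14.9% and 13% of all genes. Of the same 38, 16 were called higher and 1 lower in the triple mutant against hel2∆, beside 15.1% and 13.8% of all genes. In the triple mutant against the double mutant the calls were 2 higher and 3 lower, beside 2.81% and 4.12% of all genes. By list, in the double mutant against wild type, 6 of 7 factors around Rpn4 and 4 of 7 proteasome-associated proteins were called higher and 0 lower. Each of these lists had 3 of 7 called higher in the triple mutant against hel2∆.

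Free ubiquitin is supplied under stress by UBI4, the polyubiquitin gene. It had 542 and 490.0 CPM in the triple mutant, 334 and 350.2 CPM in the double mutant, 165 and 138 CPM in hel2∆, and 179 and 161 CPM in wild type. The order of strains was that of RPN4 except that hel2∆ and wild type overlapped. UBI4 rose in the double mutant against wild type by 1.01 ± 0.10 (edgeR adjusted p = 0.000137) and in the triple mutant against the double mutant by 0.59 ± 0.10 (adjusted p = 0.0117, up to 0.095 without 1 library). The interaction was 0.75 ± 0.14 (adjusted p = 0.0408), lost in 6 of 15 alternatives too. The ubiquitin fusion genes RPL40A, RPL40B and RPS31, which are expressed in growing cells as ribosomal protein genes, were called lower in the double mutant against wild type at -0.46, -0.44 and -0.38. RPL40A and RPL40B encode the same protein, and the split of reads between them is uncertain. Of the words of 36 coding bases in UBI4, 0 occurred in another gene.

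Of genes for partners of the proteasome, ECM29, whose product tethers core and cap, had 114 and 112 CPM in the triple mutant and 144 and 151 CPM in the double mutant, against 87.3 and 99.8 CPM in hel2∆ and 90.6 and 93.7 CPM in wild type. It was highest in the double mutant and intermediate in the triple mutant, and was called higher in the double mutant against wild type (0.68 ± 0.08, edgeR adjusted p = 0.00047) and lower in the triple mutant against the double mutant (-0.39 ± 0.08, adjusted p = 0.0296). The second call was lost without any 1 of the 4 libraries compared (adjusted p up to 0.237). PDR1, a regulator of drug resistance that also acts on RPN4, had 97.1 and 102 CPM in the triple mutant and 136 and 139 CPM in the double mutant, against 90.6 and 105 CPM in hel2∆ and 86.3 and 91.3 CPM in wild type. Its double-mutant libraries were the highest, and it rose there by 0.63 ± 0.09 over wild type (edgeR adjusted p = 0.000908), and was called lower in the triple mutant relative to the double mutant, at -0.47 ± 0.09 (adjusted p = 0.0188, up to 0.195 with 1 library left out).

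Assembly chaperones were mixed, with 4 of 9 called higher and 1 lower in the double mutant against wild type, beside 14.9% and 13% of all genes. ADD66, which helps to build the α ring, had 114 and 109 CPM in the triple mutant and 106 and 102 CPM in the double mutant, against 74.6 and 68.1 CPM in hel2∆ and 69.4 and 72.7 CPM in wild type. All 4 libraries without U34 modification were higher, by 0.65 ± 0.08 in the triple mutant against hel2∆ (edgeR adjusted p = 0.000365) and 0.56 ± 0.08 in the double mutant against wild type (adjusted p = 0.00105). HSM3, a chaperone of the base, had 31.7 and 34.6 CPM in the triple mutant, 45.1 and 44.2 CPM in the double mutant, 39.7 and 48.4 CPM in hel2∆, and 45.8 and 46.9 CPM in wild type. It was lowest in the triple mutant, at -0.43 ± 0.11 against the double mutant (edgeR adjusted p = 0.0492), a call lost in 6 of 16 alternatives.

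Of 15 genes for ubiquitin, its activation, shuttles and Cdc48 with cofactors, 9 were called higher in the double mutant against wild type (14.9% of all genes) and 8 in the triple mutant against hel2∆ (15.1% of all genes), and the 3 called lower in the first were the fusion genes above. DDI1, a shuttle that carries ubiquitinated proteins, had 134 and 129 CPM in the triple mutant and 107 and 119.8 CPM in the double mutant, against 88.0 and 77.1 CPM in hel2∆ and 83.0 and 69.5 CPM in wild type. UFD1, a cofactor of the segregase Cdc48, had 93.2 and 88.1 CPM in the triple mutant and 74.2 and 80.0 CPM in the double mutant, against 62.4 and 62.1 CPM in hel2∆ and 57.6 and 53.9 CPM in wild type. Both had all libraries without U34 modification above all others, and both were called higher in the triple mutant against wild type (DDI1 0.78 ± 0.11, UFD1 0.70 ± 0.08) and in the double mutant against wild type (0.57 and 0.47). CDC48 itself rose by 0.45 and the ubiquitin-activating enzyme gene UBA1 by 0.61 in the double mutant against wild type.

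Members were last set beside the sequence of their own genes, as a description. Of the 27 members with an exact GGTGGCAAA, 21 were called higher in the double mutant against wild type, with a median log2 fold change of 0.65. Of the 7 without, 3 were called higher, with a median of 0.24. Those 3 were RPN8, PRE5 and PUP1, the carriers of AGTGGCAAA printed above, whereas RPN10, RPN13 and SEM1, with GGTGGCGAA, and UMP1 were not called. This split did not hold in the triple mutant against hel2∆. There RPN8 was not called (0.12 ± 0.09, edgeR adjusted p = 0.338), and UMP1, which has no match, was called (0.32 ± 0.10, adjusted p = 0.0423). In the double mutant against wild type, the calls of RPN8 and PRE5 were among those lost without at least 1 library. Conversely, an exact match stood before RPN7, RPT6, PRE4, PRE7 and PRE9, which were called in neither U34 comparison. Outside the members, 45 genes tested had an exact match, of which 18 were called higher and 3 lower in the double mutant against wild type (median 0.21, beside 0.03 over all genes), where 14.9% of all genes were called higher and 13% lower. In the triple mutant against hel2∆, 18 of the 45 were called higher and 1 lower (median 0.27, beside 0.00), where the shares of all genes were 15.1% and 13.8%. UBI4, ECM29, UBA1, CDC48 and YAP1 were among them, and RPN4 was not.

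**Figure D5:**
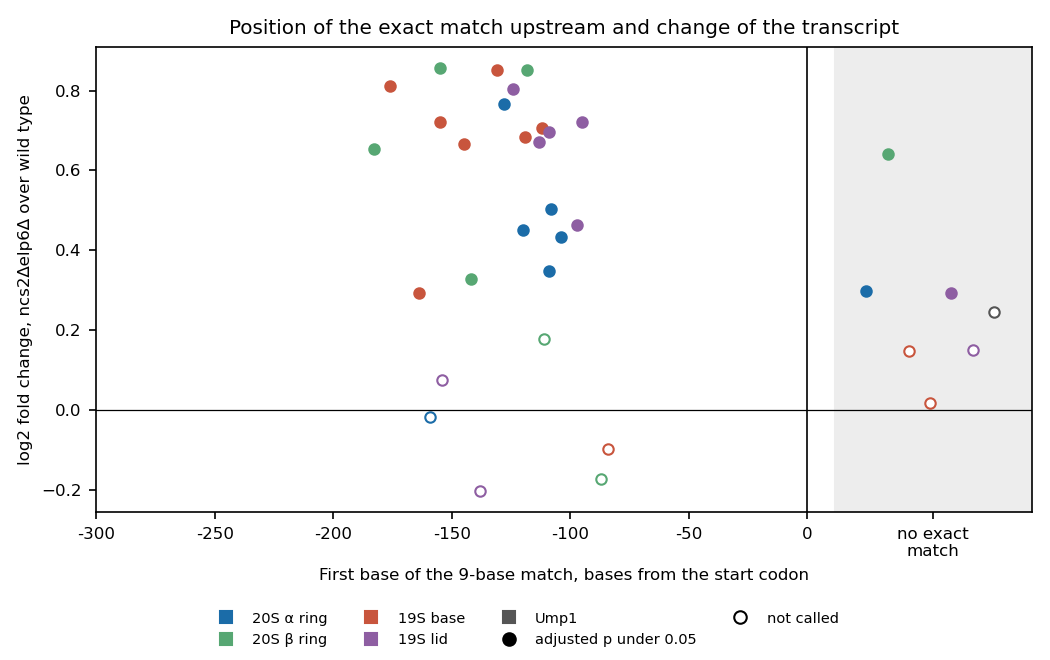
Log2 fold change in ncs2∆elp6∆ over wild type (y axis) of each member against the position of its exact match, as the distance of the first base from the start codon (x axis, bases), with members without an exact match in the shaded area. Matches lie 84 to 183 bases ahead of the start codon, and both the largest rises and the members that were not called (open points) occur within that range.

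The codons AAA, CAA and GAA, which are read by tRNAs that carry the thiolated form of U34, made up a median of 12.51% of the codons of members, against 11.34% over 5644 genes tested. Their share correlated with the log2 fold change in the double mutant against wild type at Pearson's r = -0.36 and Spearman's rho = -0.315 over the 34 members, a weak relation. Codon pairs of CGA or GCA followed by AAA or CAA were present in 15 of 34 members, and 58.9% of genes had none. RPN9 and UMP1 were the 2 members with a CGA-CAA pair. In the double mutant against wild type, members with such a pair had a median log2 fold change of 0.43 and those without had 0.50. Of these, 9 of 15 and 15 of 19 were called higher, beside 14.9% of all genes. The split by codon pair was not computed over all genes, and an effect of the pairs was not tested.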

How the data were processed

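The authors deposited 1 table of raw read counts by gene for 8 TruSeq stranded poly(A) libraries, whose untrimmed reads were aligned to coding sequences. Per the labels, the notes on processing name Bowtie and the build sacCer3, and the counting program is not given in the sources used here. Here, genes were filtered with filterByExpr, scaled by TMM and fitted together with the quasi-likelihood F test (edgeR 4.0.16, R 4.3.3), 1 coefficient per strain, p-values being adjusted over 6087 genes and two-sided. Standard errors were derived from the F statistic. The code was tested on simulated data. Alternatives were RLE, upper-quartile and total scaling, 2 other filters, DESeq2 1.42.0, fits of only the strains compared, a replicate block, and each library left out. Members and lists were chosen with earlier results of these data known. By rule, values of all libraries are given for up to 3 called members per comparison with the largest rise or fall, the members of largest and smallest spread, UMP1, RPN4 and up to 4 listed genes per comparison. Exact permutation tests of 2 against 2 libraries cannot fall below p = 0.333 and were not used. Gene models and upstream sequences were from the NCBI RefSeq annotation of R64, in which 5804 of 6337 gene IDs were found by locus tag. No member had a near-identical copy (95% identity over 100 bases, BLAST 2.17.0). The strand setting used in counting is not given, so reads of genes and antisense transcripts may not be separated.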

Additional observations from a re-analysis of the deposited data

Results flagged for a closer look

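By the test of the interaction, 69 of the 6087 genes tested (1.13%) were called, 59 higher and 10 lower. Of these, 0 were members. Among the 38 listed genes that are no members, the change with loss of HEL2 differed between backgrounds by this test for 2. For UBI4 it was 0.754 ± 0.142 greater on the log2 scale without U34 modification than with it (SE, edgeR adjusted p = 0.0408), with adjusted p-values of 0.0144 to 0.156 when libraries were left out one at a time. For RPN4 it was 0.689 ± 0.131 greater (edgeR adjusted p = 0.0408), with adjusted p-values of 0.0273 to 0.144 when libraries were left out and 0.0687 with library totals.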

How the results depend on the processing

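The rise of proteasome transcripts without U34 modification kept its direction in all alternatives run, and no called change turned its sign. Medians near 0, in comparisons with few or no members called, did change sign: with library totals, and among the fits that left out 1 library, as given below. With 2 libraries per strain, leaving out 1 library gave 19 to 24 members called in the double mutant over wild type, 21 to 25 in the triple mutant over wild type, 18 to 24 in the triple mutant over hel2∆, 0 to 2 in the triple mutant over the double mutant, and 0 in the others. The median log2 fold change then ran from 0.414 to 0.474, 0.431 to 0.475, 0.361 to 0.454 and 0.0252 to 0.0726, from -0.0143 to 0.0762 in hel2∆ over wild type and from -0.047 to 0.0469 in the interaction. In the double mutant over wild type the median was 0.43 with RLE size factors, 0.565 with library totals, 0.416 with upper-quartile factors, 0.429 in DESeq2 and 0.428 with only the strains compared. With library totals it was 0.479 in the triple mutant over wild type, 0.514 over hel2∆ (0.375 with upper-quartile factors), -0.0363 over the double mutant, and -0.0259 in hel2∆ over wild type. Library totals moved the median of all genes too, to 0.141 in the double mutant over wild type and 0.105 in the triple mutant over hel2∆, and relative to it the members' median was 0.423 and 0.409, against 0.424 and 0.408 with TMM. The members called in the triple mutant over the double mutant were 0 with RLE or upper-quartile factors and 2 in DESeq2 or with only the strains compared. The exact motif count of 72 genes became 448 with 1 mismatch allowed. The labels give all strains replicates 1 and 2 but do not say that a number pairs libraries, and same-number correlations ran from -0.209 to 0.476. With the replicate block, members called were 24 in the double mutant over wild type, 25 in the triple mutant over wild type, 24 over hel2∆, 1 over the double mutant and 0 in the others (medians 0.457, 0.434, 0.413 and 0.0254). Over all genes, the calls in the triple mutant over the double mutant were 663 with the block and 645 in DESeq2, against 422 as reported, those of the interaction 119 and 153, against 69, and DESeq2 called 61 in hel2∆ over wild type, against 40.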
